A study of Mus musculus with 6 samples.

Results

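The genes described here are 36 genes of the unfolded protein response and of protein folding in the endoplasmic reticulum (ER), measured in HL-1, a mouse heart muscle line that arose from an atrial tumour and keeps cardiomyocyte features. They comprise 12 chaperones and cochaperones, 4 disulfide isomerases, 3 sensors or transcription factors, 10 components of ER-associated degradation and 7 components of translocation into the ER. They were chosen by symbol, and each was represented by the probe set with the highest mean log2 signal among those annotated to that symbol alone. This gave 35 of the 36 genes, out of 18193 genes with such a probe set on the array. Sec61g, the small subunit of the Sec61 channel, had no probe set annotated to it alone and was not analysed here. All 35 passed the filter on low signal and were tested, among 11332 genes tested.

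Confluent HL-1 cells were kept for 8 hours at 1% oxygen (hypoxia, 3 arrays) or at 21% oxygen (normoxia, 3 arrays), and total RNA was hybridised to 6 one-colour Affymetrix arrays. The comparison asks how these transcripts respond to low oxygen. All samples come from the same cell line, with no genetic change named, and nothing says that they came from separate cultures. The p-values therefore measure no more than the spread among these samples, and that spread may be technical. An array signal is relative to the other transcripts of the same sample, so fewer cells of a type and less RNA per cell cannot be told apart.

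Proteins that enter the secretory pathway fold in the ER with the help of lumenal chaperones and disulfide isomerases, and misfolded ones are sent back to the cytosol for degradation. When unfolded proteins accumulate, the ER membrane sensors ATF6, IRE1 (encoded by Ern1) and PERK (encoded by Eif2ak3) start the unfolded protein response. ATF6 and XBP1 then raise transcription of chaperone and degradation genes, while PERK slows translation and favours ATF4. In cardiomyocytes the same organelle system also serves calcium storage, and disulfide bond formation passes electrons on to oxygen.

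The promoters of these genes were searched for a DNA element to which response factors can bind. The matches describe letters, and none was measured as a binding site. The ER stress response element (ERSE) is CCAAT, 9 bases of any kind and CCACG; the factor NF-Y binds its first part and ATF6 the second. Windows of 250 bases before to 50 bases after the transcription start, taken from RefSeq on GRCm38.p6, were found for 28 of the 36 genes. Hyou1, Manf, Sil1, Atf6, Derl1, Sec61a1, Ssr2 and Sec11c were without an entry. Searched on both strands, an exact ERSE stood in 9 of the 28 promoters (32.1%), against 0.137% of the promoters of 27025 genes. The genes were chosen as genes of this response, so the higher share is no independent result and was not tested. The 10 matches are given 5′ to 3′ in the orientation of the element, with its fixed letters in capitals.
Hspa5 (chr2:34772025-34772043, plus strand): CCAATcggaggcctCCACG
Hsp90b1, farther match (chr10:86705638-86705656, minus strand): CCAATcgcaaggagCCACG
Hsp90b1, nearer match (chr10:86705533-86705551, plus strand): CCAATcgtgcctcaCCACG
Calr (chr8:84847075-84847093, plus strand): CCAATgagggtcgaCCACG
Canx (chr11:50325800-50325818, minus strand): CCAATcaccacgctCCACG
Creld2 (chr15:88819520-88819538, minus strand): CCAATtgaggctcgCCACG
Dnajc3 (chr14:118937827-118937845, plus strand): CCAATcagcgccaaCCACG
Pdia6 (chr12:17266491-17266509, plus strand): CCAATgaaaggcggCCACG
Syvn1 (chr19:6046532-6046550, plus strand): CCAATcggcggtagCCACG
Derl3 (chr10:75893242-75893260, minus strand): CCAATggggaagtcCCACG

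The related element ERSE-II, ATTGG, 1 base of any kind and CCACG, stood in 2 of the 28 promoters (7.14%), against 0.0444% of all. These were Herpud1, which encodes a membrane protein of the degradation complex, and Dnajb11, a BiP cochaperone. The same limit of the choice of genes holds for this share.
Herpud1 (chr8:94386377-94386387, plus strand): ATTGGgCCACG
Dnajb11 (chr16:22857852-22857862, plus strand): ATTGGcCCACG

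The window of Hspa5 is shown whole, because Hspa5 encodes BiP, the Hsp70 of the ER lumen whose release frees the sensors. The ERSE is in capitals and begins 65 bases before the start (chr2:34771840-34772139, plus strand, GRCm38.p6). The match is a description of these letters and not a measured site.
Hspa5: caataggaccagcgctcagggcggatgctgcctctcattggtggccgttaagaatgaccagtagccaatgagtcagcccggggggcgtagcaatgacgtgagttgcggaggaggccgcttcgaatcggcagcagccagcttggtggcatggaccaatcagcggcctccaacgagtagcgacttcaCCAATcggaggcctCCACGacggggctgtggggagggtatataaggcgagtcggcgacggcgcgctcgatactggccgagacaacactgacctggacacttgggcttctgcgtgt

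**Figure D1:**
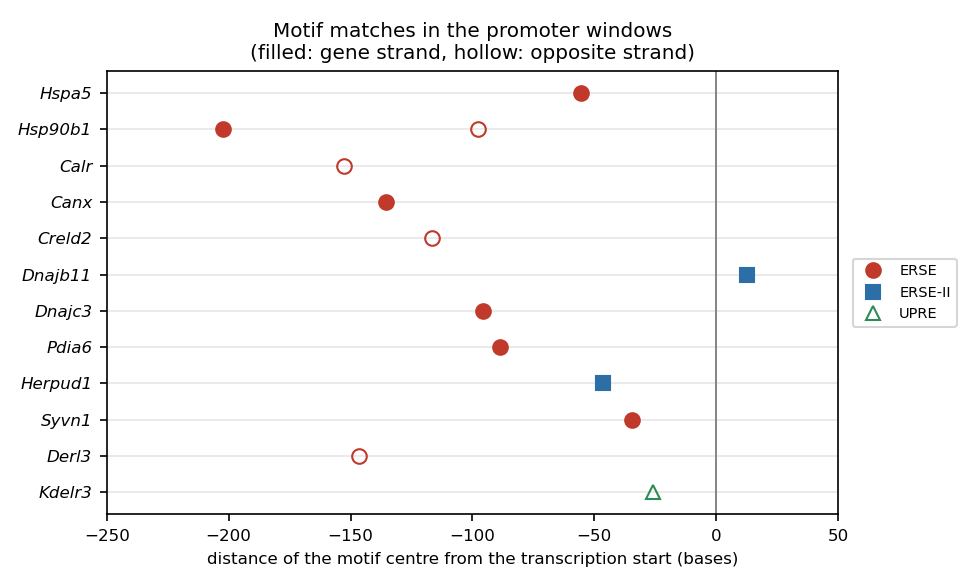
Distance in bases (x axis) between the transcription start and the centre of each exact motif match, for 11 of the genes and for Kdelr3. Circles are ERSE, squares ERSE-II and the triangle the element UPRE; filled symbols lie on the strand of the gene and hollow ones on the opposite strand. All ERSE matches lie before the start, between 44 and 212 bases away at their first base.

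Against this background the median size of the change between hypoxia and normoxia in the 35 genes was near that of all genes tested. With limma, 0 of the 35 passed at an adjusted p under 0.05, and the smallest adjusted p was 0.277, for Canx. Over all 11332 genes 0.75% passed, 0.662% higher and 0.0882% lower in hypoxia. At such a share, 0 of 35 does not set these genes apart. At an unadjusted p under 0.05 there were 5 of 35 (14.3%), 3 with a positive and 2 with a negative log2 fold change, where 12.4% of all genes reached it, 6.13% higher and 6.3% lower. The median log2 fold change of the 35, hypoxia over normoxia, was 0.06, against -0.04 over all genes tested. The median size of the change regardless of sign was 0.17 log2 for the 35 and 0.20 log2 for all genes. The individual values ran from -0.52 for Edem2 to 0.38 for Creld2, and 22 were above 0 (62.9%, against 44.4% of all genes).

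The intervals of the representative probe sets bound these changes. Each 95% interval of limma's log2 fold change, not adjusted for the number of genes, ended below 1 log2 in all 35, against 89.5% of all genes. The highest upper end was 1.66-fold, for Syvn1, and the median upper end 1.36-fold. The interval lay wholly within 1 log2 of 0 for 33 of the 35, against 74.2% of all genes. The 2 exceptions were Calr and Edem2, whose lower ends were -1.09 and -1.01. Among the other tested probe sets, intervals reached up to 1.53 for Ssr1 and down to -1.60 for Hyou1 and -1.45 for Calr. The 35 genes were bright, from the 70.3 (Ern1) to the 99.5 (Hspa5) percentile of mean log2 signal over all probe sets. With a trend the SE can depend on the signal, and genes of like signal were not compared.

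**Figure D2:**
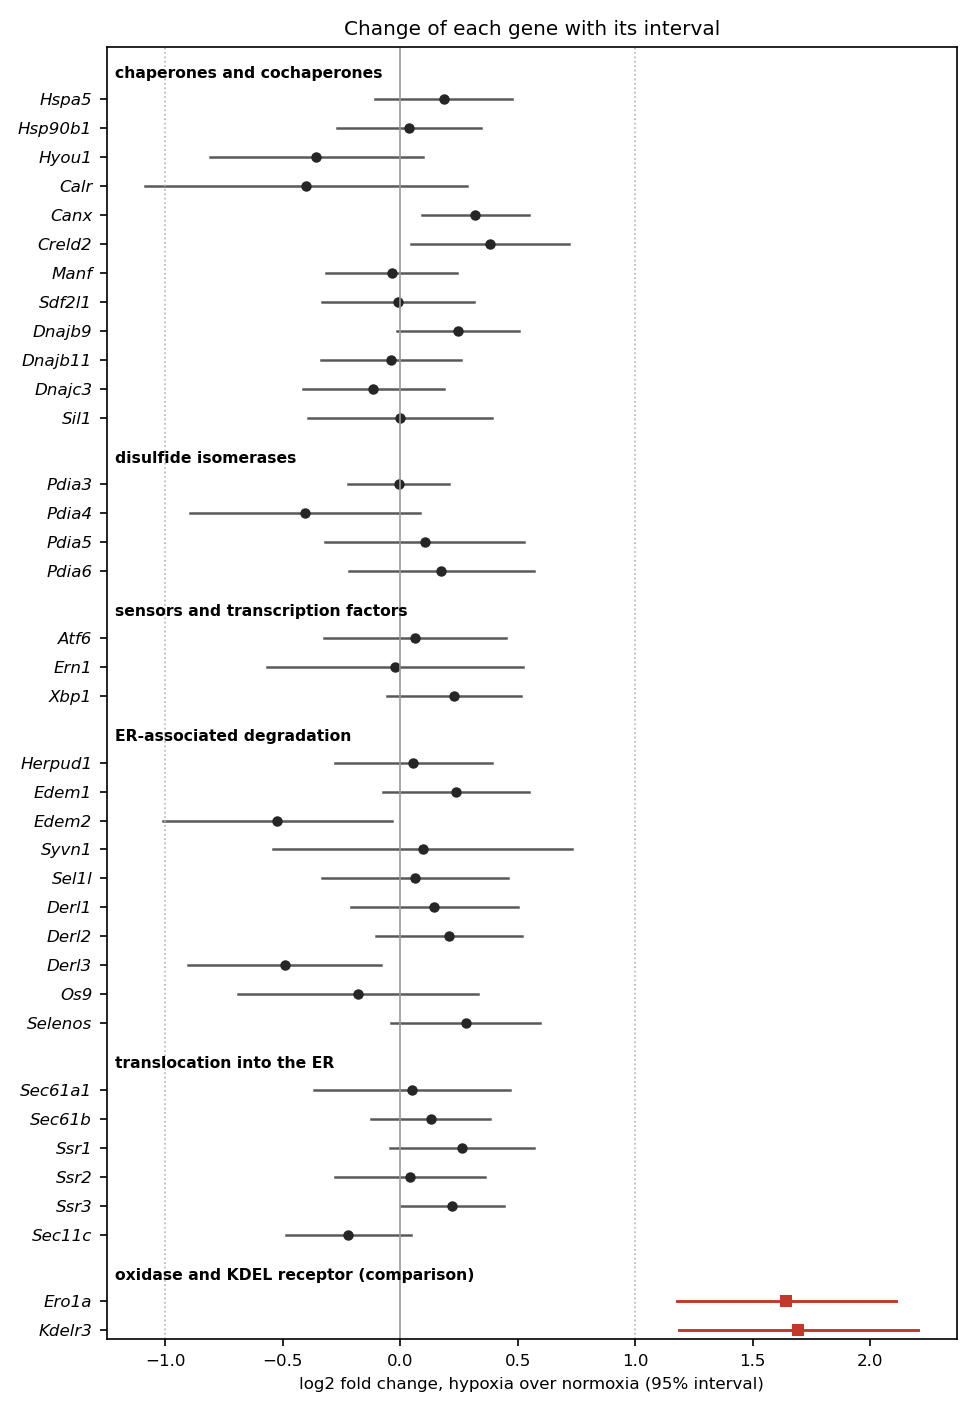
Log2 fold change, hypoxia over normoxia (x axis), with its 95% interval for each of the 35 genes by role, and for Ero1a and Kdelr3 at the bottom; 3 arrays in each group, dotted lines at 1 log2 on either side of 0. The intervals of all 35 genes, each at its representative probe set, end below 1, while those of Ero1a and Kdelr3 begin above it.

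The same arrays carried a clear response to low oxygen. Slc2a1, the glucose transporter GLUT1, averaged 2272 ± 326 on the hypoxia arrays and 538 ± 66.6 on the normoxia arrays (SD, n = 3 each, as for all means given here). Its log2 fold change was 2.08 (adjusted p = 0.00038). Bnip3, a mitochondrial protein of mitophagy, rose by 2.87, Egln3, a prolyl hydroxylase that acts on HIF, by 2.61 and Ldha, lactate dehydrogenase A, by 0.80 on the log2 scale (adjusted p = 0.00138, 0.00336 and 0.00213). The 7 atrial cardiomyocyte markers examined were all above the filter, with a summed signal of 28616 to 30849 in hypoxia and 30371 to 32596 in normoxia. Of the 7, 0 passed. The groups did not overlap for Nppa (log2 fold change 0.76, adjusted p = 0.24), Tnni3 (-0.37, adjusted p = 0.113) and Myl4 (-0.12, adjusted p = 0.639). In the rest they overlapped. Markers of fibroblasts, endothelium and smooth muscle or pericytes, 12 genes, were all below the filter, with no signal over 19.4. Of 4 leukocyte markers, Cd68 and Csf1r were above it. Cd68, a macrophage protein, had 39.3, 49.2 and 43.4 in hypoxia, against 25.3, 18.8 and 16.5 in normoxia, without overlap (log2 fold change 1.14, SE 0.29, unadjusted p = 0.00287, adjusted p = 0.157). Csf1r had overlapping groups and -0.13. The summed signal of the 4 was 76.2 to 109.6 in hypoxia and 55.3 to 94.6 in normoxia, and the part of such cells in the values below was not tested.

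Of the 12 chaperones and cochaperones, 0 passed, 6 had log2 fold changes above 0 and 6 below (the value of Sil1 rounds to 0), and their median was -0.01. Hspa5 had signals of 4731, 4902 and 5803 in hypoxia, against 5281, 3812 and 4561 in normoxia. The groups overlapped, and the fold was 1.14 (95% interval 0.928 to 1.39, adjusted p = 0.645). Hsp90b1, the ER member of the Hsp90 family, had 3340, 2607 and 2603 in hypoxia, against 2594, 3237 and 2503 in normoxia. In each group 1 array stood above the other two, and the log2 fold change was 0.04 (SE 0.14). The other tested probe set of Hsp90b1 had 0.19, with all hypoxia arrays above all normoxia arrays (SE 0.11, adjusted p = 0.579). Manf, a small protein released under ER stress, averaged 2357 ± 333 in hypoxia and 2410 ± 222 in normoxia. Sdf2l1, a stress-inducible partner of the cochaperone Dnajb11, averaged 556 ± 7.31 in hypoxia and 565 ± 87.7 in normoxia, and Dnajb11 itself 606 ± 43.9 and 625 ± 67.0 in the same order. These 3 genes had log2 fold changes between -0.04 and -0.01.

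In 3 of the chaperones, Canx, Creld2 and Dnajb9, the groups did not overlap. Canx, the membrane-bound lectin chaperone calnexin, had 2269, 2369 and 2172 in hypoxia, against 1939, 1672 and 1851 in normoxia. All hypoxia arrays lay above all normoxia arrays, and the log2 fold change was 0.32 (SE 0.10, unadjusted p = 0.0109). Its other tested probe sets had 0.16 and 0.01. Creld2, an ER protein induced by ER stress, had 245, 210 and 237 in hypoxia, against 174, 167 and 191 in normoxia. Its groups did not overlap either, and the log2 fold change was 0.38 (95% interval 0.04 to 0.72, adjusted p = 0.4). Dnajb9, the BiP cochaperone ERdj4 and an XBP1 target, had 580, 584 and 592 in hypoxia, against 487, 497 and 498 in normoxia. The arrays of each group were nearly equal, and the fold was 1.19 (95% interval 0.99 to 1.42, adjusted p = 0.488). The cochaperone Dnajc3 and the BiP nucleotide exchange factor Sil1 had overlapping groups and log2 fold changes of -0.11 and 0.00. The other tested probe sets of Dnajc3 had the opposite sign, 0.28, 0.01, 0.13 and 0.10, also with overlap.

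Calr and Hyou1 varied more between arrays of the same group than most of the others. Calr, the soluble lectin chaperone and calcium store protein calreticulin, had 2706, 3125 and 1369 in hypoxia, against 2051, 3587 and 3628 in normoxia. Hyou1, a large Hsp70-like protein that also acts on BiP, had 871, 1097 and 641 in hypoxia, against 906, 1303 and 1090 in normoxia. For both genes, hypoxia replicate 3 was the lowest hypoxia array and normoxia replicate 1 the lowest normoxia array, on all 3 tested probe sets of each. The log2 fold changes of the representative probe sets were -0.40 (SE 0.31) and -0.36 (SE 0.20), with adjusted p = 0.666 and 0.566. The other probe sets gave -0.62 and -0.67 for Calr and -0.57 and -0.80 for Hyou1. Edem2, Os9 and Syvn1 shared the same lowest arrays on every tested probe set. This order does not set the 35 genes apart. Hypoxia replicate 3 was the lowest hypoxia array in 31.4% of the 35, against 37.5% of all genes. Normoxia replicate 1 was the lowest normoxia array in 22.9% of the 35, against 38.4% of all genes. The share of all genes with both was not taken. Within a group, the SD of the log2 signal reached 0.4 in 3 of the 35 genes, Calr, Syvn1 and Os9, and the median of the larger SD was 0.21. Whether an array effect had a part in these values was not tested.

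**Figure D3:**
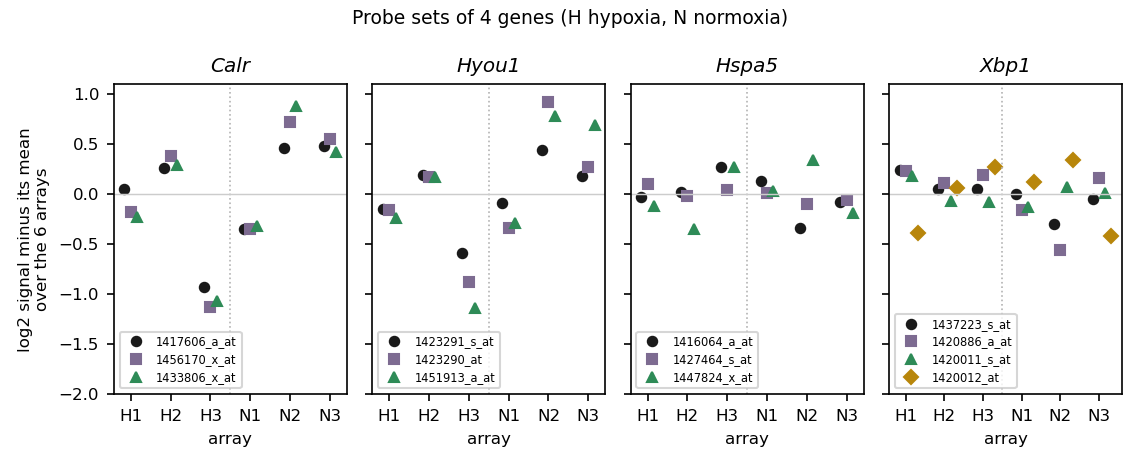
Log2 signal of each tested probe set of Calr, Hyou1, Hspa5 and Xbp1 on each array, minus its mean over the 6 arrays (y axis); H1 to H3 are hypoxia replicates and N1 to N3 normoxia replicates, with a symbol for each probe set. All 3 probe sets of Calr and of Hyou1 are lowest on H3 among the hypoxia arrays and on N1 among the normoxia arrays.

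The disulfide isomerases, which make and rearrange disulfide bonds, had 0 of 4 passing and 0 of 4 with groups that did not overlap. Pdia3, also called ERp57, which works with calnexin and calreticulin, had 2198, 2413 and 2515 in hypoxia, against 2426, 2397 and 2327 in normoxia. Its log2 fold change was -0.01 with an interval of -0.22 to 0.21, so its level was bounded to within 1.16-fold upward. Pdia4, also called ERp72, had 175, 240 and 192 in hypoxia, against 361, 212 and 245 in normoxia. Normoxia replicate 1 stood above the other arrays. The log2 fold change was -0.41 with all arrays (SE 0.22, adjusted p = 0.545) and -0.19 without that one. Pdia6 averaged 1308 ± 181 in hypoxia and 1173 ± 259 in normoxia, and Pdia5 233 ± 54.6 and 214 ± 20.9 in the same order, with log2 fold changes of 0.17 and 0.10.

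Of the 3 sensors and transcription factors, 0 passed. Atf6 had 174, 221 and 203 in hypoxia, against 209, 160 and 204 in normoxia, a log2 fold change of 0.06 (interval -0.33 to 0.45). Its other tested probe sets had 0.17, with overlap, and 0.51. The last had 96.3, 126 and 92.5 in hypoxia, against 72.3, 70.9 and 76.7 in normoxia, without overlap (SE 0.19, unadjusted p = 0.0239, adjusted p = 0.372). Ern1 had 70.1, 68.7 and 52.3 in hypoxia, against 64.0, 83.0 and 49.7 in normoxia, a log2 fold change of -0.02 (interval -0.57 to 0.52). Activation of either sensor occurs on the protein and is not measured by these values. Xbp1, the transcription factor whose mRNA IRE1 splices, had 1131, 990 and 993 in hypoxia, against 957, 778 and 929 in normoxia. All hypoxia arrays lay above all normoxia arrays, with a fold of 1.17 (95% interval 0.962 to 1.43, adjusted p = 0.558). Of its 3 other probe sets, log2 fold changes were 0.36, 0.03 and -0.03. Splicing of Xbp1 was not analysed here.

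ER-associated degradation moves misfolded proteins through a ubiquitin ligase complex to the proteasome, and 0 of its 10 genes passed. Herpud1, a strong target of ER stress, had 435, 341 and 389 in hypoxia, against 358, 344 and 417 in normoxia (log2 fold change 0.06, SE 0.15). The mannosidase-like proteins Edem1 and Edem2 had values of opposite sign. Edem1 had 346, 384 and 347 in hypoxia, against 294, 284 and 337 in normoxia, without overlap (log2 fold change 0.24, SE 0.14, adjusted p = 0.582). Its other tested probe set had 0.43, also without overlap (SE 0.18, unadjusted p = 0.041, adjusted p = 0.432). Edem2 had 121, 134 and 85.6 in hypoxia, against 130, 175 and 180 in normoxia, with overlap (log2 fold change -0.52, SE 0.22, adjusted p = 0.423).

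The derlins, membrane proteins of the retrotranslocation channel, had values of both signs. Derl3 had 67.6, 77.4 and 75.5 in hypoxia, against 91.6, 101 and 120 in normoxia. All hypoxia arrays lay below all normoxia arrays, at a fold of 0.711 (95% interval 0.534 to 0.945, unadjusted p = 0.0237, adjusted p = 0.371). Derl1 had 511, 428 and 583 in hypoxia, against 523, 418 and 432 in normoxia, with overlap and a log2 fold change of 0.14. Derl2 averaged 380 ± 28.2 in hypoxia and 329 ± 27.0 in normoxia, with overlap and 0.21. The ubiquitin ligase Syvn1 (HRD1), its partner Sel1l and the lectin Os9 had overlapping groups and log2 fold changes of 0.10, 0.06 and -0.18. The 2 tested probe sets of Syvn1 differed in sign (0.10 and -0.40). Selenos, a selenoprotein bound to the derlin complex, had 674, 646 and 684 in hypoxia, against 648, 474 and 543 in normoxia. The lowest hypoxia array lay just under the highest normoxia array, and the log2 fold change was 0.28 (SE 0.14, adjusted p = 0.527).

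Translocation into the ER was represented by the Sec61 channel, the associated TRAP complex and a signal peptidase subunit, and 0 of 6 genes passed. The channel subunits Sec61a1 and Sec61b averaged 1291 ± 284 and 1445 ± 63.1 in hypoxia, against 1245 ± 256 and 1324 ± 135 in normoxia. Their log2 fold changes were 0.05 and 0.13. Of the TRAP subunits, Ssr3 had 1851, 1904 and 1746 in hypoxia, against 1629, 1570 and 1517 in normoxia, without overlap (log2 fold change 0.22, SE 0.10, unadjusted p = 0.0489, adjusted p = 0.454). Ssr1 had 802, 850 and 812 in hypoxia, against 788, 700 and 581 in normoxia, also without overlap (0.26, SE 0.14, adjusted p = 0.533). Ssr2 averaged 546 ± 38.1 in hypoxia and 533 ± 72.0 in normoxia (0.04). Sec11c, a catalytic subunit of the signal peptidase, had 731, 653 and 729 in hypoxia, against 809, 881 and 774 in normoxia. Its hypoxia arrays all lay below the normoxia arrays (log2 fold change -0.22, SE 0.12, adjusted p = 0.548).

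**Figure D4:**
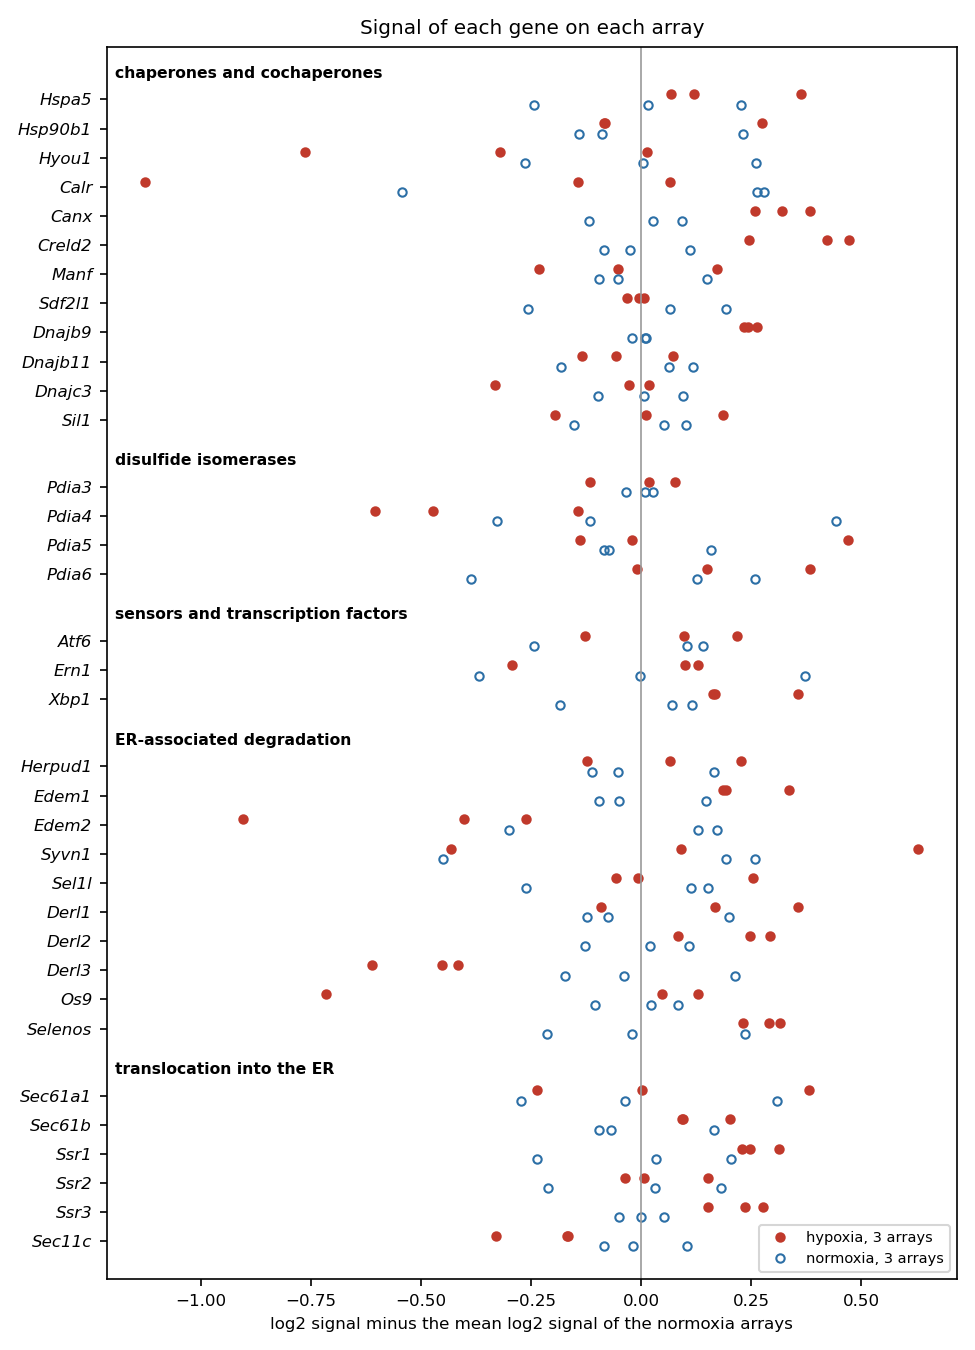
Log2 signal of each of the 35 genes on each array minus the mean log2 signal of its normoxia arrays (x axis), by role; filled red points are the 3 hypoxia arrays and hollow blue points the 3 normoxia arrays. In 7 genes all hypoxia points lie right of the normoxia points and in 2 genes left of them, while in the other 26 they overlap.

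In all, the 3 hypoxia arrays did not overlap the 3 normoxia arrays in 9 of the 35 genes (25.7%), against 18.1% of all genes. They lay above in 7, Canx, Creld2, Dnajb9, Xbp1, Edem1, Ssr1 and Ssr3, and below in Derl3 and Sec11c, against 8.16% and 9.91% of all genes. Normoxia replicate 2 was the lowest normoxia array in 20 of the 35 genes (57.1%), against 36.3% of all genes. Without that array the median log2 fold change of the 35 was -0.00014, against 0.06 with it, and without hypoxia replicate 2 it was 0.10. The 35 genes had 79 tested probe sets in all, of which 0 passed with limma, against 137 of all 22518 tested. An unadjusted p under 0.05 was reached by 8 of the 79. Over all genes, 12.4% reached it on the representative probe set. The log2 fold changes of all 79 ran from -0.80 (Hyou1) to 0.79 (Ssr1, a probe set beside the representative one, with overlapping groups). Of 44 tested probe sets beside the representative ones, in 22 genes, 31 had the sign of the representative.

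The log2 fold changes of the 9 genes with an exact ERSE ran from -0.49 to 0.38 with a median of 0.10, and 6 were above 0. The 16 tested genes whose promoter held neither ERSE nor ERSE-II had values from -0.52 to 0.28 with a median of 0.12, and 10 were above 0. This is a description of the values and was not tested.

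The other genes of ER folding, 131 genes in 9 lists, were examined on the same arrays. Of 115 tested, 2 rose and 0 fell, 10 had an unadjusted p under 0.05 (8.7%), and their median log2 fold change was 0.05. Both that rose belong to the list of oxidases and KDEL receptors, of which 8 genes were tested. In the other 8 lists 0 genes passed. Among other disulfide isomerases P4hb, the founding member of the family, averaged 2121 ± 373 in hypoxia and 1625 ± 274 in normoxia (log2 fold change 0.38, adjusted p = 0.438). Log2 fold changes were -0.07 for the lectin Mlec, 0.07 for Rpn1 of the oligosaccharyltransferase, -0.21 for the degradation ATPase Vcp and 0.17 for the signal peptidase subunit Spcs1. They were -0.34 for Tmbim6, an inhibitor of cell death at the ER membrane, and 0.08 for Serpinh1, the collagen chaperone, with adjusted p between 0.533 and 0.914 for these 6.

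The PERK branch, where translation is held back and ATF4 is made, had 0 of 10 genes passing and a median log2 fold change of 0.27. Atf4 averaged 582 ± 54.7 in hypoxia and 613 ± 73.7 in normoxia, a log2 fold change of -0.07 (adjusted p = 0.887). Its activity is controlled mainly through translation, which these values do not show. The following were named after their values were seen. Ddit3, the stress factor CHOP, had 246, 154 and 163 in hypoxia, against 121, 156 and 150 in normoxia, with overlap (log2 fold change 0.38, SE 0.21, adjusted p = 0.566). Eif2ak3, which encodes PERK, had 0.32 (SE 0.19, adjusted p = 0.579) and Atf3 0.68 (SE 0.29, adjusted p = 0.434) with overlapping groups. Nfe2l2 had 0.35 (SE 0.13, adjusted p = 0.379), the only gene of the PERK list without overlap. Of the 10 genes 8 were above 0 and 2 below, Atf4 and Chac1 (-0.35, SE 0.49, adjusted p = 0.83). Creb3l2, a membrane-bound activator related to ATF6, had 254, 268 and 347 in hypoxia, against 172, 198 and 207 in normoxia, without overlap (0.58, SE 0.17, adjusted p = 0.228). Its other tested probe set had overlapping groups and 0.10 (adjusted p = 0.912). Of the 10 tested genes of its list 7 were below 0, with a median of -0.30. That list holds proteases and genes such as Wfs1, Tmbim6 and Bak1 beside the activators, so the median is not that of the activators alone. Gpx7, of the oxidases and KDEL receptors, had -0.42 (SE 0.13, adjusted p = 0.24). Fkbp11, of the other lumenal cochaperones and proline isomerases, had -0.50 (SE 0.15, adjusted p = 0.235). In both genes the hypoxia arrays all lay below the normoxia arrays. Over the 115 genes tested in the 9 lists, groups did not overlap in 18 (15.7%), 11 higher and 7 lower, against 18.1% of all genes.

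**Figure D5:**
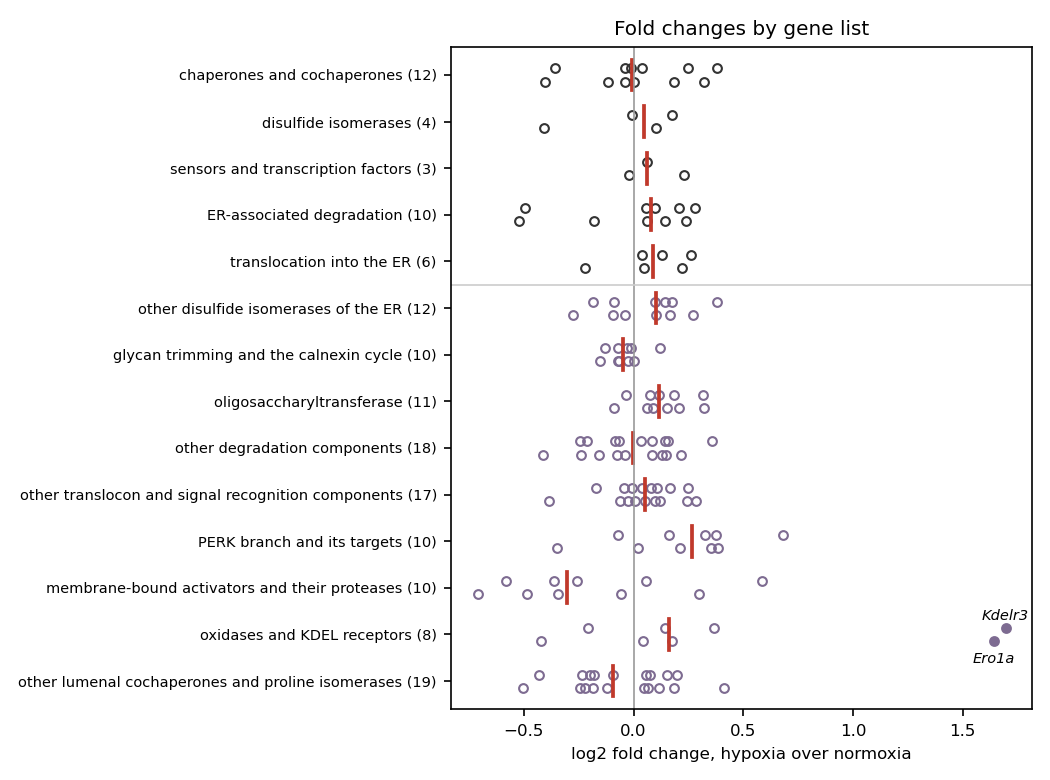
Log2 fold changes, hypoxia over normoxia (x axis), of the tested genes by role (top 5 rows) and of the other ER folding lists (lower rows); each circle is a gene, filled where its adjusted p was under 0.05, red bars are list medians and the number of genes is in parentheses. Ero1a and Kdelr3 are the filled circles, at 1.64 and 1.70.

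Ero1a and Kdelr3 rose on the same arrays. Ero1a, the oxidase that passes electrons from disulfide isomerases to oxygen, had 1052, 673 and 604 in hypoxia, against 233, 276 and 219 in normoxia. The log2 fold change was 1.64 (SE 0.21, adjusted p = 0.0076), and its other 2 probe sets had 1.78 and 1.57. Kdelr3, a receptor that returns lumenal proteins such as BiP to the ER, had 448, 376 and 257 in hypoxia, against 99.7, 134 and 95.8 in normoxia, with a log2 fold change of 1.70 at an SE of 0.23 (adjusted p = 0.0112). In both genes all hypoxia arrays lay above all normoxia arrays. The related receptors Kdelr1 and Kdelr2, named after their values were seen, had -0.21 and 0.17 (adjusted p = 0.728 and 0.801), and the peroxiredoxin Prdx4 had 0.05.

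The calls of these 2 genes depended on the setting. Ero1a did not pass without normoxia replicate 3 (adjusted p = 0.0581). For Kdelr3 the adjusted p was 0.0901 or 0.0602 when the first or the second hypoxia array was left out, and 0.073 without normoxia replicate 3. Neither passed with eBayes without a trend (adjusted p = 0.102 for both), where 9 genes passed in all. Over all 16 settings the log2 fold change of Ero1a was at most 1.83 and that of Kdelr3 between 1.52 and 1.92; the lowest of Ero1a, without hypoxia replicate 1, was 1.403.

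The promoter of Kdelr3 held no ERSE or ERSE-II. It held the element UPRE, the exact letters TGACGTGG, to which ATF6 and XBP1 can bind, at chr15:79516378-79516385 on the minus strand. These exact letters stood in 0.714% of the promoters of all genes and in 0 of the 28 read here. Forms with another last base were not searched. The window of Hspa5 shown above holds TGACGTGA, which differs in the last base and was not counted. The window is shown because the gene rose, with the UPRE in capitals as it reads on the plus strand (chr15:79516158-79516457, plus strand, GRCm38.p6).
Kdelr3: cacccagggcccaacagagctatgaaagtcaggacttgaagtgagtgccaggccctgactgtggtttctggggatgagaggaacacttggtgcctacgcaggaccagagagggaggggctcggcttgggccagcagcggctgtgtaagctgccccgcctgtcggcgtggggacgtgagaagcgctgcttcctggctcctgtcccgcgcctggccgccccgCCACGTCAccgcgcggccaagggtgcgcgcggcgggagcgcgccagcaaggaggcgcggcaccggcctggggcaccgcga

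ACGTG, a core to which HIF can bind, stood on either strand in 13 of the 28 promoters (46.4%) and in 21.8% of all. Of its 19 matches in these promoters, 1, in Herpud1, overlapped an ERSE-II. In Calr, Dnajb9, Derl3, Selenos and Ssr1, matches on opposite strands overlapped each other, and each was counted. The window of Kdelr3 held it at 2 positions, 1 of them inside the UPRE, and that of Ero1a at 1 position. Such a short word is frequent, and no match was measured as a binding site.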

How the data were processed

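Total RNA of HL-1 cells was measured on 6 one-colour arrays, 3 for each oxygen level. The deposited values were intensities on a linear scale, 1 for every probe set on every array, made by the authors with MAS5, per the submitters' processing notes. The MAS5 settings are not stated there. The table held 45037 probe sets. Each array's mean signal, after trimming 2% from both ends, was 99.5, and no scaling was added. No array was identical to another, and detection calls were not used here. The number of arrays limits the precision.

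The deposited intensities were log2 transformed after setting 10 values of 0 to 0.1, the smallest signal above 0. Probe sets were tested where their mean log2 signal lay above the median over all, a geometric mean of 14.1, which kept 22518. The 2 oxygen levels were compared by limma 3.58.1 (R 4.3.3; lmFit, then eBayes with trend, two-sided, no covariates), with Benjamini-Hochberg adjustment over every probe set tested. Fold changes are hypoxia over normoxia with limma's moderated standard error (SE), and 95% intervals use its total degrees of freedom. The procedure was tested on simulated data.

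Gene symbols came from the array platform's annotation, in which 34945 probe sets had 1 gene symbol, 932 several and 9160 none. Promoter sequences were RefSeq's on GRCm38.p6, matched by symbol; the arrays carry no coordinates. The genes and lists, their order and the tests were chosen with earlier results of these data known, so no list was tested as a set. The rule named all 36 genes, and from each other list those that passed and the brightest that did not. Replicate numbers are shared between the groups. Deviations of same-numbered arrays from their group means had correlations of both signs over genes tested (-0.10, 0.25 and -0.17), so they were not taken as pairs. Between differently numbered arrays the correlations ran from -0.34 (hypoxia 2 with normoxia 1) to 0.38 (hypoxia 3 with normoxia 1).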

Additional observations from a re-analysis of the deposited data

How the results depend on the processing

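In all 16 alternative settings, 0 of the 35 genes passed in either direction with limma; 2 of them, Ern1 and Derl3, were not tested with the filter at the 75th percentile. The smallest adjusted p of any of them was 0.113, for Canx with array weights. Over all genes, between 9 (eBayes without a trend) and 277 (array weights) passed. The count at an unadjusted p under 0.05, 5 in the fit on all arrays, was 1 without hypoxia replicate 1, 5 and 3 without hypoxia replicates 2 and 3, and 8, 3 and 2 without normoxia replicates 1, 2 and 3. Shares of all genes at that threshold were not taken in these settings. In the paired fit, with the replicate number as a block (replicate block), 0 passed, the median log2 fold change was 0.06 and 63 of all genes passed, against 85. The median of the 35 lay between -0.00014 and 0.17 over all settings. Centring each array on its median moved the median of all genes by 0.11 log2, and 27 of the 35 were then above 0, as were 59.9% of all genes. Of the 35, 18 kept their sign in every setting and 17 changed it in at least 1, all without passing. These signs are therefore not settled, and the cause was not tested.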
